A study of Homo sapiens with 8 samples.

Results

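The control cells of NCI-H146, an established human line labelled as small cell lung cancer (SCLC in the protocols), were described from 2 of the 8 libraries of the series. These 2 libraries, NCI-H146 shcontrol replicates 2 and 3, were chosen by their labels alone and make up the whole control group of that line. The study knocked down KLF9 with a short hairpin RNA (shRNA) in NCI-H146 and in a second line, NCI-H1688. No knockdown library enters any level or ratio given here, except in a check of the NCI-H1688 labels by KLF9. The control cells were labelled wild type, of lung and of epithelial type. They had been infected with lentivirus that carried a control shRNA and kept under puromycin for 2 weeks in RPMI-1640 medium with 10% fetal bovine serum, so they are selected, stably transfected cells and not untouched parental cells. The labels speak of biological replicates without saying whether these came from separate infections or cultures.

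Small cell lung cancer is a neuroendocrine carcinoma that usually makes the secretory granule proteins of neurons and endocrine cells and keeps an epithelial program of keratins and adhesion proteins. Its tumours are commonly sorted by the transcription factors they express, NEUROD1, POU2F3 and YAP1 among them, and MYC or a relative of it is often amplified. CDX2 is a homeobox factor that specifies intestinal epithelium and caudal body axis, UCHL1 and ENO2 are a deubiquitinase and a glycolytic enzyme abundant in neurons and neuroendocrine cells, and KLF5 is a zinc-finger factor of proliferating epithelium.

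Depth was 15406264 counts in replicate 2 and 16109803 in replicate 3, over 17167 genes. Levels are CPM, the counts of a gene scaled to the total of its library, where 1 count is worth 0.0649 and 0.0621 CPM. Levels of different genes were compared only after division by the total exon length of the gene, as CPM per kb of exon, and ranks run from 1 for the highest among the 16629 genes with a known exon length. A gene with at least 1 CPM in both libraries is called detected, and 12223 genes (71.2%) were. This share of 71.2% is the reference for the detected count of every gene list below. Intervals are 95% exact intervals and cover counting error only, since PCR copies were not told apart. Whether counting used strand is not recorded, so overlapping genes may hold each other's reads. In RNA from many cells, fewer cells of a type and less RNA per cell cannot be told apart. A listed gene that has no row in the table used here has no value, and nothing is said of its level. Every row held at least 2 counts over the 4 NCI-H146 libraries, knockdown included. Which genes have a row, and so the share of 71.2%, may depend on the knockdown libraries.

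The 4 marker genes were all present, and their order put CDX2 far above the rest. CDX2 (chromosome 13, 27962137 to 27971139, minus strand) stood at 3492 CPM in replicate 2 and 3222 CPM in replicate 3, with 53799 and 51898 counts. Its level per length was 814 ± 46.4 CPM per kb (mean and SD, n = 2), rank 32 of 16629 genes and close to the beta-actin gene ACTB at 801 ± 29.5 CPM per kb. Among all genes of the table, a factor that specifies intestine was thus at the level of a cytoskeletal housekeeping gene.

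UCHL1 (chromosome 4, 41256413 to 41268455) stood at 682 and 683 CPM, and its 299 CPM per kb gave it rank 108. ENO2 (chromosome 12, 6913745 to 6923698) stood at 128.1 and 128.3 CPM, or 29.95 CPM per kb and rank 1458. Scaled to the library total, both genes had the same level in the 2 libraries to within 1 CPM. Other scale factors, given further on, move every ratio between the libraries. KLF5 (chromosome 13, 73054976 to 73077542) stood at 180 and 127 CPM, 39.5 ± 9.61 CPM per kb and rank 1064. Its ratio of 1.42 (95% interval 1.34 to 1.5) was the widest of the 4 between the libraries. Per length, ENO2 and KLF5 were neighbours whose levels overlapped within 1 SD of KLF5, whereas CDX2, UCHL1 and this pair were separated by more than their spread.

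**Figure D1:**
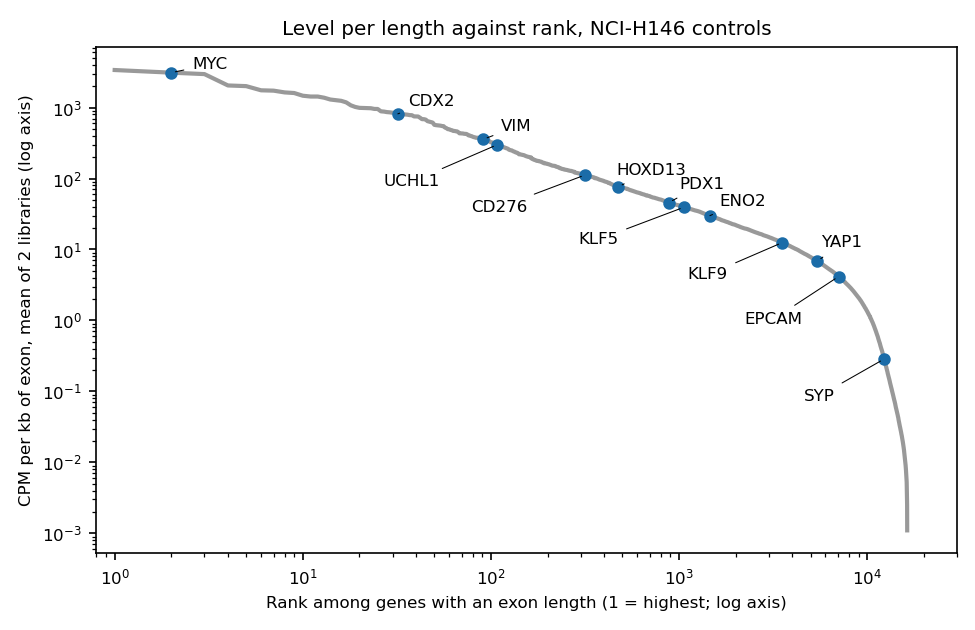
Level per exon length (CPM per kb, mean of the 2 control libraries, log axis) against rank among 16629 genes (log axis), with 13 genes labelled; the grey line is all genes. MYC lies at rank 2, CDX2 at 32, VIM at 91 and UCHL1 at 108, while YAP1, EPCAM and SYP lie at 5438, 7043 and 12292.

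The labelled epithelial type, and the neuroendocrine type usual for the labelled tumour, were then set against their defining markers. Many of these markers were near 0. Chromogranin A (CHGA), a core protein of dense-core granules, had 3 and 9 counts, or 0.195 (interval 0.0402 to 0.569) and 0.559 CPM (interval 0.255 to 1.06). NCAM1, the neural adhesion molecule also known as CD56, had 3 and 7 counts. Synaptophysin (SYP), a synaptic vesicle protein, stood at 1.43 and 1.55 CPM, rank 12292. These 3 genes are the standard diagnostic markers of the tumour type, and none reached 2 CPM in either library.

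CHGB, the second chromogranin, was detected at 5.00 and 7.32 CPM. INSM1, a zinc-finger factor used to define neuroendocrine tumours, has no row. On the epithelial side E-cadherin (CDH1) had 7 and 14 counts, or 0.454 and 0.869 CPM, with upper bounds of 0.936 and 1.46 CPM. The epithelial adhesion molecule gene EPCAM stood at 13.3 and 7.64 CPM. At CDH1 the measured profile therefore goes against the labelled epithelial type. At CHGA, SYP and NCAM1 it goes against the neuroendocrine type usual for the labelled tumour. UCHL1, ENO2 and the keratins described further on were present. The identity of the cells was not tested, and NCI-H146 here means the cells so labelled.

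The subtype factors were mixed. POU2F3, the factor of tuft-like tumours, had 0 counts in both libraries, or a limit of 0.195 and 0.186 CPM at 3 counts each and exact upper bounds of 0.239 and 0.229 CPM. NEUROD1, a basic helix-loop-helix factor of neurons and endocrine cells, had 9 and 11 counts, or 0.584 and 0.683 CPM. ATOH1, a related factor of sensory and secretory cells, was detected at 4.61 and 6.89 CPM. YAP1, the transcriptional effector of the Hippo pathway, was the highest of the 4 factors with a row, at 38.1 and 48.2 CPM, but its 6.86 ± 1.14 CPM per kb put it only at rank 5438. Of the 5 listed subtype factors 4 had a row and 2 were detected.

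**Figure D2:**
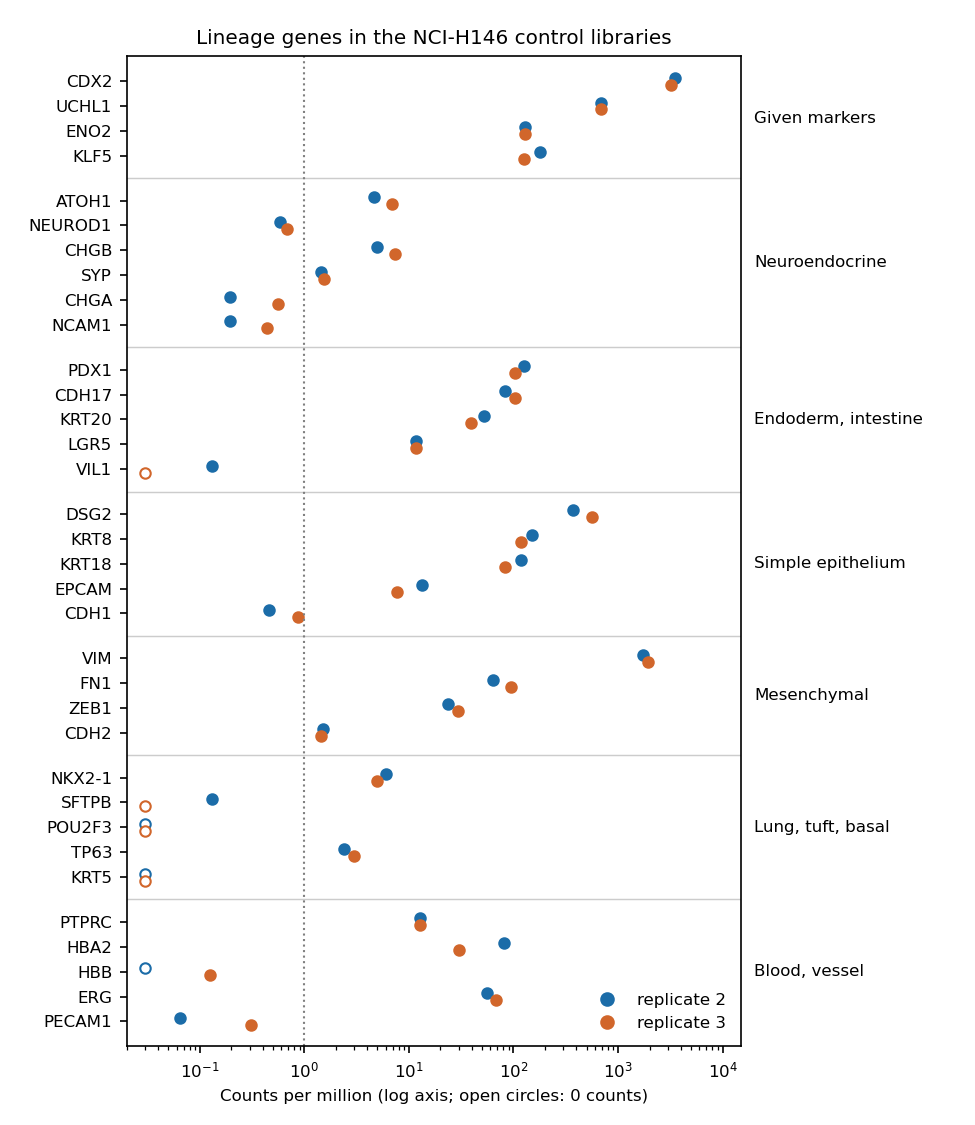
CPM (log axis) of 34 lineage genes in control replicates 2 (blue) and 3 (orange), grouped by cell type; open circles at the left edge are 0 counts and the dotted line marks 1 CPM. CDX2, UCHL1 and VIM lie between 682 and 3492 CPM, while CHGA, NCAM1, CDH1 and VIL1 stay under 1 CPM.

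Among 39 transcription factors of neuroendocrine and neural lineages, 23 had a row and 12 were detected. SOX4, a SoxC factor of progenitors and of many carcinomas, was the most abundant in CPM at 112 and 125. Per length it was close to LHX2, a LIM homeobox factor of forebrain and hair follicle stem cells, at 20.3 ± 1.54 against 21.3 ± 3.38 CPM per kb, so their order is not resolved. ISL2, a LIM homeobox factor of motor neurons, stood at 44.98 and 33.3 CPM. These 3 ranked 2067 to 2519 per length, and the next of the list, HES6, ranked 5666.

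HES6, a basic helix-loop-helix protein of neuronal differentiation, stood at 14.1 and 12.0 CPM and ONECUT2 at 17.6 and 24.0 CPM. SOX2, a stem cell and foregut factor that is amplified in part of small cell lung cancer, had 3 and 4 counts. REST, the repressor that silences neuronal genes outside neurons, was detected at 50.2 and 64.4 CPM.

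Of 41 neuroendocrine and neuronal effector genes, 31 had a row and 18 were detected. Besides UCHL1 and ENO2, the highest in CPM were the synaptic vesicle glycoprotein SV2A at 139 and 150 CPM and the peptide-amidating enzyme PAM at 130 and 153 CPM. CPE, which trims prohormones, stood at 45.1 and 40.0 CPM. RAB3A, a GTPase of vesicle release, stood at 31.4 and 29.9 CPM. The abundant members thus include vesicle proteins and peptide-processing enzymes. By contrast SYT1, the calcium sensor of release, had 5 and 5 counts and STMN2, a neuronal microtubule regulator, 2 and 1.

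Of 45 neuropeptide and hormone precursors, 21 had a row and 7 were detected, and GRP, the bombesin-like peptide typical of this tumour, has no row. Galanin (GAL) stood at 32.4 and 29.9 CPM, 23.9 ± 1.38 CPM per kb. Neuromedin B (NMB), the relative of GRP, stood at 20.8 and 17.7 CPM. The other 5 detected precursors were under 6 CPM, and the calcitonin gene CALCA had 2 and 0 counts.

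Endoderm factors were split between a few abundant genes and many near 0, with 15 of 38 detected (27 with a row). PDX1 (chromosome 13, 27920020 to 27926231), the homeobox factor of pancreas and duodenum, stood at 126 and 103 CPM, 45.8 ± 6.41 CPM per kb and rank 882. NKX6-1, a factor of pancreatic beta cells, stood at 28.5 and 17.8 CPM. Both lay well under CDX2, which gave most of the list's summed 4009 and 3681 CPM.

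Other gut factors had few counts. HNF4A, a nuclear receptor that works beside CDX2 in intestine, had 0 and 3 counts. GATA4 had 3 and 1 counts. FOXA1, a pioneer factor of endoderm and breast, was detected at 10.8 and 10.1 CPM. FOXA2, GATA6, SOX17 and CDX1 have no row.

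Of 30 intestinal effector genes 16 had a row and 5 were detected (31.2% of those with a row, against 71.2% of all genes). CDH17, the liver-intestine cadherin and a target of CDX2 in gut, stood at 83.1 and 104 CPM and rank 1830. KRT20, a keratin of differentiated enterocytes, stood at 51.7 and 38.9 CPM and rank 1786. LGR5, the receptor that marks intestinal stem cells, stood at 11.8 and 11.7 CPM. The remaining 2, DPP4 and TSPAN8, were under 5 CPM. Villin (VIL1), the brush border protein, had 2 and 0 counts, sucrase-isomaltase (SI) 9 and 4, and the guanylate cyclase receptor GUCY2C 1 and 1. Differentiated gut genes were thus split, with CDH17 and KRT20 present, DPP4 detected at under 5 CPM, and VIL1, SI and GUCY2C near 0.

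Genes of simple epithelium showed the same split, with 28 of 35 genes in the table and 14 detected. The desmosomal cadherin DSG2 led at 367 and 558 CPM, rank 491, and desmoplakin (DSP), which anchors it to keratin filaments, stood at 191 and 262 CPM. KRT8 stood at 149 and 117 CPM and KRT18, with which it pairs in filaments, at 119 and 82.3 CPM. The tight junction scaffold TJP1 stood at 100.5 and 145.6 CPM. Against these, the epithelial splicing regulator ESRP1 had 5 and 12 counts, the claudin CLDN4 10 and 4, and RAB25 3 and 1. KRT7, KRT19, CLDN7 and GRHL2 have no row. Structural proteins of desmosomes and keratin filaments were measured, and E-cadherin and the splicing and trafficking regulators that usually go with them were near 0.

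Of 31 mesenchymal genes 25 had a row and 19 were detected, against 71.2% of all genes. Vimentin (VIM, chromosome 10, 17228259 to 17237593), the intermediate filament protein of mesenchymal and many cultured cells, stood at 1746 and 1935 CPM. Its 357 ± 25.9 CPM per kb and rank 91 put it above UCHL1 per length. The integrin subunit gene ITGB1 stood at 232 and 294 CPM. SNAI1, a repressor of E-cadherin, stood at 115 and 78.4 CPM, and ZEB1, another such repressor, at 23.8 and 29.3 CPM. Fibronectin (FN1) stood at 63.9 and 94.6 CPM. N-cadherin (CDH2) was detected only barely, at 1.49 and 1.43 CPM, and SPARC, a matrix protein, had 0 counts in both. Vimentin and the E-cadherin repressors SNAI1 and ZEB1 were therefore present without the N-cadherin level that often goes with them. SNAI2, TWIST1 and TWIST2, of the same list, have no row.

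Markers of other cell types were counted as a check on the culture. Of 22 lung epithelial genes 12 had a row and 4 were detected, and surfactant genes SFTPB and SFTPC had 2 and 0 counts each. NKX2-1, the lung and thyroid factor often found in small cell lung cancer, stood at 6.10 and 4.97 CPM. ABCA3, a lipid transporter of lamellar bodies, stood at 71.4 and 115 CPM, and LAMP3 at 6.49 and 20.7 CPM.

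Of 13 tuft cell genes with a row 1 was detected, of 15 basal and squamous genes 5 were, and KRT5 had 0 counts in both libraries. Of 10 leukocyte genes with a row 3 were detected, with the summed list at 22.5 and 23.8 CPM; PTPRC (CD45) stood at 12.8 and 12.7 CPM, while CD14 had 2 and 0 counts and CD3E has no row. Of 8 fibroblast genes with a row 5 were detected. The collagen genes COL1A1 and COL3A1 stood at 101 and 51.5 and at 23.4 and 31.3 CPM, while COL1A2, the partner chain of COL1A1, had 3 and 0 counts.

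Of 9 endothelial genes with a row 3 were detected, with the ETS factor ERG at 56.4 and 68.0 CPM and the secreted factor EGFL7 at 124 and 110 CPM, while PECAM1 had 1 and 5 counts. Of 12 erythroid genes with a row 5 were detected. Alpha globin HBA2 stood at 81.1 and 30.2 CPM, with reads that its near-identical copy HBA1 could share. Beta globin (HBB) had 0 and 2 counts. The markers of other cell types were thus mixed, with HBA2, PTPRC, COL1A1, COL3A1 and ERG detected and HBB, CD14, COL1A2 and PECAM1 near 0. Their part in the profile was not tested.

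The HOX genes, which record position along the body axis, were broadly present. Of 39 HOX genes 33 were detected, and 5 of the 38 with a row were not. The detected share of those with a row was 86.8%, against 71.2% of all genes. HOXD13 (chromosome 2, 176092891 to 176095938), the most 5′ gene of its cluster and a factor of distal limb and hindgut, was the highest at 161 and 183 CPM, 76.6 ± 7.04 CPM per kb and rank 476. HOXC12 followed at 30.9 ± 8.52 and HOXB9 at 28.6 ± 0.0513 CPM per kb, which overlap within 1 SD.

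The C and D clusters held most of the HOX signal. Summed over cluster C, the level was 131.5 and 146.8 CPM per kb, and over cluster D 117 and 126 CPM per kb. Cluster B gave 42.0 and 40.5 and cluster A 32.2 and 32.6 CPM per kb. Within C and D the paralogs numbered 9 to 13, which act in the caudal body, gave 96.05 and 111 CPM per kb for C and 97.8 and 108 for D. HOXD13 alone gave 71.7 and 81.6 of the D values. Cluster B also leaned to paralogs 9 to 13, at 33.3 and 32.8 CPM per kb against 8.76 and 7.64 for paralogs 1 to 8. Most of that was HOXB9, at 28.6 in both libraries. In cluster A paralogs 9 to 13 gave only 8.19 and 11.7 CPM per kb, less than its paralogs 1 to 8 at 24.0 and 20.9. Both libraries put the clusters in the order C, D, B, A.

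**Figure D3:**
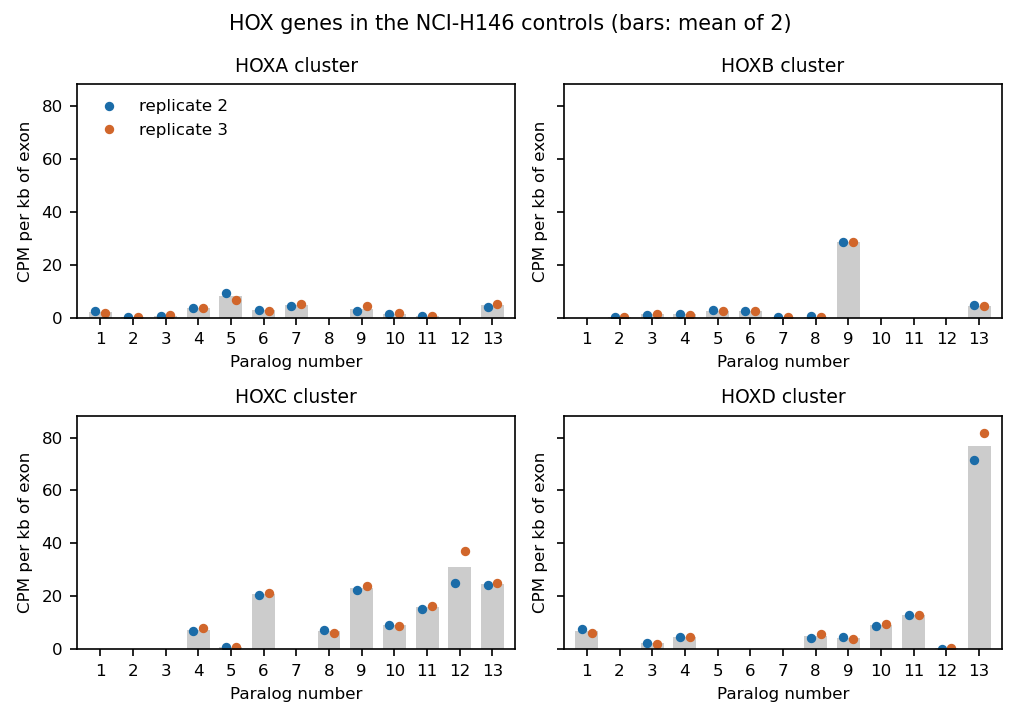
CPM per kb of exon of each HOX gene by paralog number, 1 panel a cluster on a shared linear axis; bars are the mean of the 2 control libraries and dots the single libraries, and positions with no bar have no gene, no row or a level near 0. HOXD13 reaches 71.7 and 81.6 CPM per kb, while no gene of cluster A exceeds 10.

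MYC was the second highest gene of the transcriptome per length. It stood at 9608 CPM in replicate 2 and 8998 CPM in replicate 3 (chromosome 8, 127735434 to 127741434), with 148019 and 144961 counts and 3100 ± 144 CPM per kb. The glycolytic enzyme GAPDH was next after it at 2959 ± 532 CPM per kb. The levels of MYC and GAPDH overlap within 1 SD of GAPDH. A transcription factor was thus as abundant as the most abundant housekeeping genes in both libraries.

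Partners and antagonists of MYC were at ordinary levels. MAX, its obligate dimer partner, stood at 198 and 175 CPM, and the antagonists MXD4, MNT and MXD1 stood at 124 and 122, 112 and 125, and 77.4 and 57.0 CPM. ODC1, a classical MYC target in polyamine synthesis, ranked 25 at 954 ± 126 CPM per kb. RB1, the tumour suppressor that is usually lost in small cell lung cancer, was detected at 73.1 and 117 CPM, which says nothing of its sequence or protein. CDKN2A, the inhibitor locus that often rises when RB1 is lost, stood at 100 and 84.5 CPM.

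Cyclin D2 (CCND2) stood at 241 and 227 CPM and cyclin D1 (CCND1) at 11.2 and 12.0 CPM. All 24 proliferation genes were detected. UBE2C, the ubiquitin-conjugating enzyme of mitotic exit, led them at 297 and 254 CPM. The DNA clamp gene PCNA stood at 222 and 233 CPM and the proliferation antigen gene MKI67 at 201 and 265 CPM.

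The Krüppel-like and SP zinc-finger factors, the family of the gene targeted in the study, had 25 of 27 members in the table and 19 detected. KLF10, a gene induced by transforming growth factor beta, was highest per length at 51.6 ± 5.99 CPM per kb (190 and 224 CPM, rank 771). KLF5 at 39.5 ± 9.61 and SP2 at 34.0 ± 1.47 CPM per kb followed, and SP1, the ubiquitous founding SP factor, stood at 17.9 ± 2.17. KLF10 and SP2 differ by more than their SD, whereas KLF5 overlaps both neighbours.

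KLF9 (chromosome 9, 70384597 to 70414624), a factor induced by glucocorticoid and thyroid hormone, stood at 64.5 and 65.1 CPM, 12.5 ± 0.0730 CPM per kb and rank 3540. Its close relative KLF13 stood at 27.9 and 38.7 CPM. KLF3 stood at 88.5 and 116 CPM, KLF11 at 72.8 and 80.1, KLF6 at 59.0 and 56.9, KLF16 at 35.7 in both, KLF15 at 30.8 and 28.1 and KLF7 at 23.4 and 33.7 CPM. KLF8 had 0 counts in both libraries, and KLF1, KLF14 and KLF17 had 2 or fewer in each. KLF4 was low and unequal, at 11.8 and 4.34 CPM.

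Nuclear receptors, the hormone and lipid sensing transcription factors, had 40 of 48 members in the table and 30 detected. Their share of 75.0% of those with a row was close to the 71.2% of all genes. The heme-binding clock repressor NR1D1 led per length at 29.5 ± 11.2 CPM per kb, and its relative NR1D2 stood at 25.5 ± 1.94. NR4A1, an orphan receptor of the early response, stood at 118 and 99.1 CPM. The thyroid hormone receptor THRA stood at 103 and 104 CPM, and the orphan receptor NR2F2 at 84.5 and 96.2 CPM. Of steroid receptors, NR3C1, the glucocorticoid receptor, stood at 33.0 and 40.7 CPM. ESR2 had 3 and 8 counts, and ESR1 and PGR have no row.

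Of 58 receptor tyrosine kinases 50 had a row and 35 were detected (70.0% of those with a row, against 71.2% of all genes). MET, the receptor of hepatocyte growth factor, led at 208 and 283 CPM (34.9 ± 7.47 CPM per kb, rank 1249). PTK7, a pseudokinase of planar polarity, stood at 117 and 162 CPM. FGFR1, a fibroblast growth factor receptor that is amplified in part of lung cancer, stood at 117 and 130 CPM. IGF1R stood at 73.6 and 88.5 CPM. KIT, the stem cell factor receptor often present in small cell lung cancer, stood at 15.97 and 19.5 CPM. ERBB2 stood at 22.1 and 30.04 CPM, while EGFR, RET and AXL have no row. FLT3, ALK and NTRK2 had 3 or fewer counts in each library.

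Of 56 peptide receptors 32 had a row and 9 were detected. CXCR4, the chemokine receptor that small cell lung cancer cells use in adhesion and homing, was the highest per length at 93.3 and 79.5 CPM, and the next, the melanocortin receptor MC1R, stood at 10.5 and 13.66 CPM. The bombesin receptor GRPR stood at 3.12 and 2.85 CPM. The somatostatin receptor SSTR2, a target of imaging and therapy in neuroendocrine tumours, stood at 3.63 and 7.14 CPM. NMBR, the receptor of neuromedin B, had 2 and 1 counts. Of 16 nicotinic acetylcholine receptor subunits 12 had a row and 6 were detected. CHRNA5, from the chromosome 15 cluster linked to smoking, stood at 33.8 and 44.3 CPM and its neighbour CHRNA3 at 11.2 and 10.7 CPM.

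Among 62 surface proteins that are therapy targets or immune ligands, 52 had a row and 36 were detected. That is 69.2% of those with a row, against 71.2% of all genes. ADGRG1, listed under its older symbol GPR56, was left out of these counts, at 1.17 and 1.43 CPM. SLC7A5, the large neutral amino acid transporter, led at 1419 and 1177 CPM (274 ± 35.98 CPM per kb, rank 118), and SLC3A2, the chain it pairs with, stood at 292 and 262 CPM. CD276, the checkpoint protein B7-H3, stood at 555 and 690 CPM and rank 317. The transferrin receptor gene TFRC stood at 537 and 598 CPM. PVR, a ligand of the receptors TIGIT and CD226, stood at 172 and 162 CPM.

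Levels varied among targets studied in small cell lung cancer. DLL3, the inhibitory Notch ligand, stood at 4.09 and 5.46 CPM and rank 9329. SEZ6 had 6 and 22 counts. The ganglioside synthase B4GALNT1 stood at 26.5 and 40.5 CPM and ST8SIA1, the next enzyme toward disialogangliosides, at 10.3 and 10.2 CPM. Of antigen presentation, beta-2-microglobulin (B2M) stood at 442 and 445 CPM, while HLA-B stood at 2.08 and 0.931 CPM, though reads of such polymorphic paralogs may be split or lost. The light chain of class I molecules was thus measured without a similar level of the HLA-B heavy chain.

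The Notch pathway, which restrains neuroendocrine fate in lung, had 25 of 28 members in the table and 21 detected. That is 84.0% of those with a row, against 71.2% of all genes. Its DNA-binding factor RBPJ stood at 296 and 304 CPM. Receptors NOTCH2 and NOTCH1 stood at 213 and 274 and at 145.6 and 184 CPM. The ligands JAG2 and JAG1 stood at 59.3 and 75.9 and at 52.6 and 50.5 CPM, while DLL1 had 1 and 2 counts. NRARP, a target that feeds back on the pathway, was the highest per length at 63.2 ± 1.61 CPM per kb. HES1, the best known target, was low at 3.38 and 1.99 CPM.

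The other line of the study gives a reference for these levels, with no test. Its table holds TPM, a unit scaled for transcript length, made separately, so only percentiles of per-length level over the 16544 genes of both tables were set side by side, where 100 is the highest. KLF9 went against the knockdown labels of that line, at 0.298 and 0.644 TPM in the libraries labelled control and 1.945 and 1.596 TPM in those labelled knockdown, and only the libraries labelled control were used further. CDX2 was at percentile 99.8 in NCI-H146 and listed at 0 TPM in both NCI-H1688 libraries. VIM was at 99.5 against 39.8, and UCHL1 at 99.4 against 83.5.

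KRT18 was at percentile 91.6 in NCI-H146 against 99.3 in NCI-H1688, EPCAM at 57.5 against 95.2 and CDH1 at 18.9 against 88.3. CHGA was at 19.8 against 20.8 and SYP at 26.0 against 21.9. MYC ranked 2 in NCI-H146 and lay at percentile 98.2 in NCI-H1688. CHGA and SYP thus lay low in both lines, EPCAM and CDH1 lay higher in NCI-H1688, and CDX2 and VIM lay higher in NCI-H146.

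The 2 NCI-H146 controls were then compared with each other. They are replicates of 1 group with 1 library on each side, so the differences are spread within the group and carry no test. Over 12239 genes (mean count of 20 or more in these libraries), the median log2 ratio of CPM, replicate 2 over replicate 3, was -0.13 with an SD of 0.391, and 85.8% of genes lay within 1.5-fold. In replicate 2, 74 genes (0.605%) were at least 2-fold higher. In replicate 3, 197 genes (1.61%) were at least 2-fold higher, so 271 genes (2.21%) were that far apart in either direction. The split depends on the scaling. With TMM factors, which move every log2 ratio up by 0.129, the counts were 121 and 117, and with DESeq2 size factors (0.121 up) they were 118 and 120. On the total-count scale 7870 of the 12239 genes lay below 0 and 4364 above, the reference for counts of direction below. Changes of gene groups are given beside the median of all genes.

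Heat shock genes had the largest median difference of the 35 lists at this filter. At a mean of at least 100 counts the lung epithelial list was further from 0, at -1.18 against 0.71. That lung value rests on ABCA3 and LAMP3 alone, at log2 ratios of -0.69 and -1.67. The lung list had only 4 genes at a mean of at least 20 counts. All 24 heat shock and chaperone genes that had at least 20 counts were higher in replicate 2, with a median log2 ratio of 0.82 against -0.13 for all genes. Of these, 9 of 24 were at least 2-fold higher there, against 0.605% of all genes. Summed over the list, chaperone messages took 31363 CPM in replicate 2 and 17997 CPM in replicate 3.

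HSPA6, an HSP70 gene that is almost silent in unstressed human cells, stood at 237 and 82.5 CPM, a ratio of 2.87 (interval 2.69 to 3.06). DNAJB1, the HSP40 partner of HSP70, stood at 1001 and 389 CPM, a ratio of 2.57. HSPB1, the small heat shock protein HSP27, stood at 1576 and 664 CPM, and the collagen chaperone gene SERPINH1 at 1451 and 601 CPM. These genes were high in both libraries and 2.37 to 2.87 times higher in replicate 2.

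HSPA1B stood at 117 and 45 CPM, with reads that its near-identical copy HSPA1A could share, and HSPA1A itself at 5.39 and 2.17 CPM. CRYAB, a small heat shock protein of muscle and lens, stood at 95.5 and 35.2 CPM. ZFAND2A, an arsenite and heat induced proteasome adaptor, stood at 82.6 and 33.8 CPM, and BAG3, a co-chaperone of HSP70, at 553 and 266 CPM. Just under the 2-fold line, HSP90AA1, the inducible HSP90, stood at 5579 and 2808 CPM (log2 ratio 0.99), and just over it lay BAG3 at 1.05. The heat shock factor gene HSF1 stood at 243 and 218 CPM, the smallest log2 ratio of the list at 0.16.

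Because these genes moved together between libraries, their start regions are shown for 4 members that were past 2-fold, averaged at least 10 CPM and held the searched motif in the window. Each line gives the 200 bases before the RefSeq start on build GRCh38.p14, all on the plus strand, and capitals mark each match to GAANNTTC, a pair of inverted units of the heat shock element. The windows are chr1:161524340-161524539 for HSPA6, chr6:31827538-31827737 for HSPA1B, chr11:75562053-75562252 for SERPINH1 and chr7:76302473-76302672 for HSPB1.
HSPA6: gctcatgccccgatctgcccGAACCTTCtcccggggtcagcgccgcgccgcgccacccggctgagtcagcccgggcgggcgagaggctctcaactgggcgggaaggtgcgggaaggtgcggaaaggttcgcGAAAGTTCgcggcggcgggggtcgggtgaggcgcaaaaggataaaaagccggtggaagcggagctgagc
HSPA1B: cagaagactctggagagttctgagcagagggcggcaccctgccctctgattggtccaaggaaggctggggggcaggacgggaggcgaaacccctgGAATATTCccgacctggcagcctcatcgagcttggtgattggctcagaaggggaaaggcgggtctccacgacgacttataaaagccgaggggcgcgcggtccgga
SERPINH1: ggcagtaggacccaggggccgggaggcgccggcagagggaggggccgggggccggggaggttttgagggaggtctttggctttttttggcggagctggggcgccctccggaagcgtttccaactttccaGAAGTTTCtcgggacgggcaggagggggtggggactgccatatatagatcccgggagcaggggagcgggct
HSPB1: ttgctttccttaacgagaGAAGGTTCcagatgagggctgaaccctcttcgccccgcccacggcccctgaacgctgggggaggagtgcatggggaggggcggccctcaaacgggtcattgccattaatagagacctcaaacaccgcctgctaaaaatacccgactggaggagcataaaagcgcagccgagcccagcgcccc

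The motif reads the same on both strands. In RefSeq windows of 300 bases (250 before the start and 50 after), it occurred in 6.97% of all 27305 promoters and in 4.70% of the 9954 promoters of genes with at least 20 counts. It occurred in 11 of the 22 heat shock genes with a RefSeq entry. By size of difference these were 6 of the 8 genes past 2-fold and 5 of the 14 under it. The same motif with a further TTC placed 2 bases before it, or a GAA 2 bases after it on the other strand, occurred in 7 of the 22 (31.8%) and in 0.502% of all promoters, with 2 of 8 past 2-fold and 5 of 14 under it. A match describes the letters of the window and says nothing of the factor.

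Genes of the unfolded protein and ATF4 response were also higher in replicate 2, at a median log2 ratio of 0.47 against -0.13 for all genes, with 21 of 26 above 0. HERPUD1, a membrane protein of endoplasmic reticulum degradation, stood at 806 and 375 CPM. SDF2L1, an endoplasmic reticulum chaperone cofactor, stood at 64.1 and 30.2 CPM, and PPP1R15A, the GADD34 phosphatase subunit, at 529 and 261 CPM. These were the 3 of 26 past 2-fold, against 0.605% of all genes higher in replicate 2 by that much. HSPA5, the chaperone BiP that both this list and the heat shock list hold, stood at 5070 and 2626 CPM. The ATF4 targets PSAT1 and SHMT2, of serine metabolism, had log2 ratios of -0.15 each, close to the median of all genes.

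Immediate early genes had a median log2 ratio of 0.40, against -0.13 for all genes, with 28 of 32 above 0. Of these 32, 5 were past 2-fold, against 0.605% of all genes, PPP1R15A among them. FOS, the AP-1 subunit induced within minutes of a stimulus, stood at 34.7 and 15.6 CPM, and KLF4 had a ratio of 2.70 (interval 2.04 to 3.62). RGS2, a regulator of G protein signalling, stood at 52.4 and 24.5 CPM. MYC, which is also on this list, had a log2 ratio of only 0.09. KLF10 stood lower in replicate 2 at -0.24.

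Cytosolic ribosomal protein genes gave a median log2 ratio of 0.28 with 29 of 30 above 0. None was past 2-fold, where only 2.21% of all genes were in either direction. The 13 mitochondrially encoded genes were all lower in replicate 2 on the total-count scale, with a median of -0.32 that became -0.19 with TMM factors, and their share of counts was 0.907% and 1.20%. Receptor tyrosine kinases had a median of -0.29, with 26 of 35 below 0, where 7870 of all 12239 genes were. Proliferation genes, at -0.14, were at the median of all genes.

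**Figure D4:**
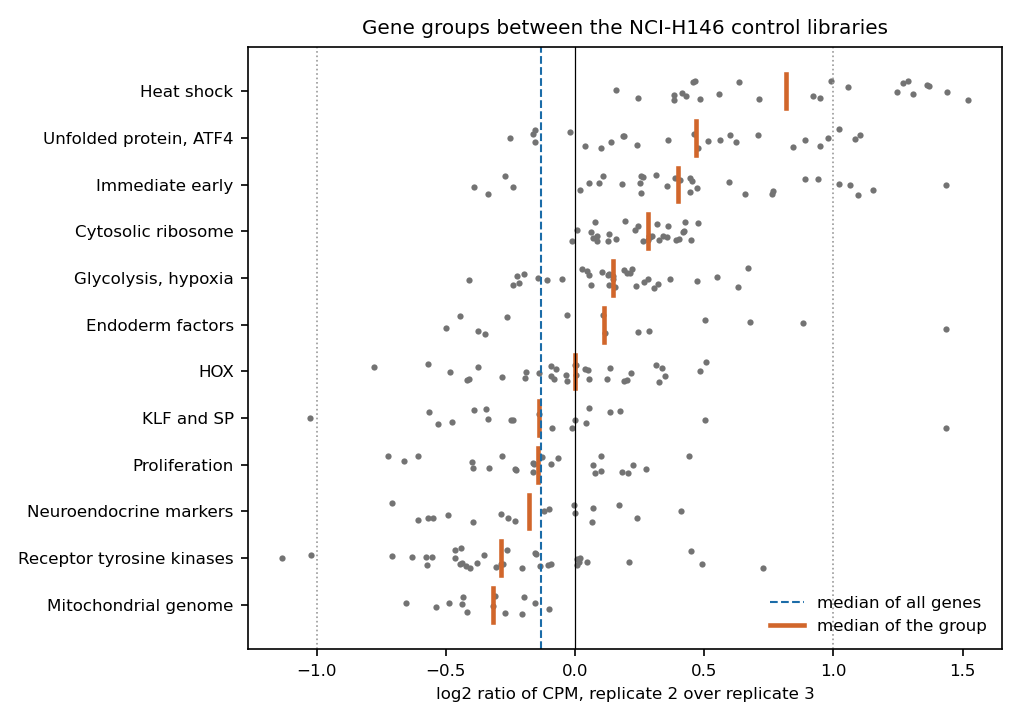
log2 ratio of CPM, replicate 2 over replicate 3, for each gene with a mean of at least 20 counts (grey dots) in 12 gene lists; orange bars are list medians, the dashed line the median of all genes (-0.13) and the dotted lines 2-fold. Heat shock genes all lie above 0, with a median of 0.82, and mitochondrially encoded genes lie below 0 on this total-count scale, with a median of -0.32 (-0.19 with TMM factors).

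Among genes higher in replicate 3, NOTCH3 was the Notch member furthest apart, at 18.0 and 50.2 CPM, which is 2.78-fold higher in replicate 3 (interval 2.42 to 3.20). BRCA1, the DNA repair and ubiquitin ligase gene, stood at 36.2 and 84.5 CPM and RAD50, of the break-sensing MRN complex, at 20.8 and 47.5 CPM. MYLK, the myosin light chain kinase, stood at 18.6 and 47.1 CPM. NCR3LG1, the ligand B7-H6 of a natural killer receptor, stood at 14.8 and 38.0 CPM. The largest ratio was that of RSC1A1, at 1.95 and 12.2 CPM, which rests on 30 and 197 counts.

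Of the lineage genes, HBA2 was 2.69-fold higher in replicate 2, and HBA1 stood at 7.85 against 3.10 CPM. LAMP3, of the lung list, was 3.19-fold higher in replicate 3. ERBB3 and CSF1R, receptor kinases, were past 2-fold in the same direction but under 4 CPM, and HLA-B was past 2-fold toward replicate 2. On the total-count scale none of CDX2, UCHL1, ENO2, VIM, MYC, PDX1 or HOXD13 differed by more than 1.22-fold. KLF5 was further apart, at 180 and 127 CPM. TMM factors move each of these log2 ratios up by 0.129, so the bound holds for the total-count scale only. Of 33 detected HOX genes none was past 2-fold, but only 2.21% of all genes were that far apart in either direction. So few genes pass that a list of 33 says little here.

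The ratio between the libraries moved with gene length. Genes were put in 10 classes by exon length. In the class of shortest exons (0.207 to 2.16 kb) the median log2 ratio was 0.10, and in the longest class (10.8 to 119 kb) it was -0.39. Of the longest class 2.07% were 2-fold higher in replicate 3 and 0.248% in replicate 2. The receptor tyrosine kinases, with a median exon length of 7.14 kb, lay at -0.05 once the median of each gene's length class was taken off, and proliferation genes also at -0.05. Heat shock genes lay at 0.88, ribosomal protein genes at 0.28 and mitochondrially encoded genes at -0.42 on that scale, which was chosen after seeing the data. The part of length, RNA quality or handling in the differences between the libraries was not tested.

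**Figure D5:**
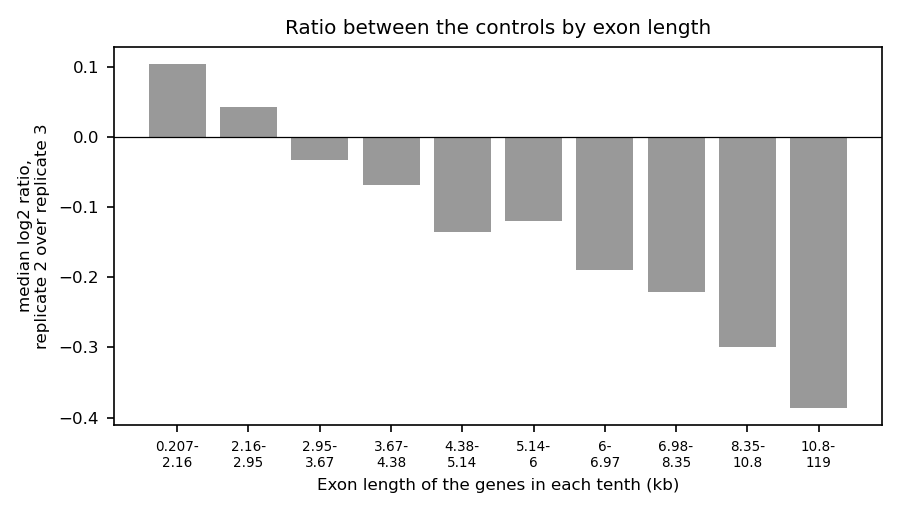
Median log2 ratio of CPM, replicate 2 over replicate 3, in each of 10 classes of genes by total exon length (kb). The median runs from 0.10 in the shortest class to -0.39 in the longest, with 1206 to 1209 genes a class.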

How the data were processed

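Libraries were made from fragmented poly(A) RNA by random priming, per the labels' protocols. For NCI-H146 the authors deposited whole-number read counts per gene. For NCI-H1688 they deposited TPM. STAR 2.5.1, DESeq2 and GRCh38 (hg38) are named, per the submitters' processing notes, without roles. The counting program and annotation are not given in the sources used here.

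Counts were divided by the library total to give CPM. Of 17169 gene names 16631 matched GENCODE 29, which gave coordinates and exon lengths, and 2 pairs of names were merged. The 35 lists hold 966 genes, of which 772 have a row under the listed symbol. Members and lists were chosen with earlier results of these data known. The text names the 4 markers, the subtype and KLF/SP factors, members among the 10 highest per length of each list, the 30 highest protein-coding genes per length, up to 15 genes with the largest ratios in each direction, and well-known list members near 0, though not all of these are printed. Ratio intervals are exact binomial and count intervals exact Poisson. Common dispersion between the 2 libraries (edgeR 4.0.16, R 4.3.3) gave a coefficient of variation of 17.58%. Their counts differed by more than sampling noise (chi-square 33.79 per degree of freedom), so they are not 1 set of counts under 2 names. That does not show that they came from separate libraries or cultures. Alternatives used TMM and DESeq2 1.42.0 size factors, other filters and other lengths. Other steps used Python 3.11.15, pandas 2.3.3 and numpy 2.4.6. The scripts were tested on simulated data. Some genes are not reported here.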

Additional observations from a re-analysis of the deposited data

How the results depend on the processing

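Of the 74 genes at least 2-fold higher in replicate 2 and the 197 in replicate 3, the counts became 121 and 117 with TMM, 118 and 120 with DESeq2 size factors, 26 and 67 at a mean of at least 100 counts, 1020 and 1399 with no filter and 0.5 added to each count, and 4 and 10 at 4-fold. With the median of each of 10 exon length classes taken off (added after seeing the data), the counts were 95 and 114. The cause was not tested, apart from the filter and fold, which change the genes counted. Detected members over all lists, 545, stayed within 1.5 times at 5 CPM (445) and without either replicate (553 to 557). Of 90 recomputed levels 5 moved by more than 1 SD between replicates, for genes whose SD was under 1 CPM, and of 90 ranks 32 moved. CDX2 ranked 16 with no division by length and 60 by the longest transcript, and MYC ranked 2 or 3 throughout. Of 175 recomputed list medians 2 moved, lung epithelium to -1.18 and peptide receptors to -0.38, both at a mean of at least 100 counts. The lung value rests on ABCA3 and LAMP3 alone.

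No paired analysis was possible because the libraries form a single group. Leaving out a replicate leaves no ratio between the controls. Genes near 20 counts have wide ratio intervals, and 357 genes had 0 counts in both libraries.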

Other observations

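Genes within 1300 kb of CDX2 and MYC were looked at after the levels of these 2 genes had been seen. Distances are between the lower ends of the genes in GENCODE 29, negative toward lower coordinates. Beside CDX2 on chromosome 13, PDX1 lies at -42 kb and was detected at 126 and 103 CPM, while FLT3, a cytokine receptor of blood progenitors at 41 kb, had 0 and 2 counts. Further out, POLR1D, a subunit of RNA polymerases I and III, stood at 432 and 347 CPM and GTF3A, a transcription factor of 5S ribosomal RNA genes, at 485 and 479 CPM (rank 199 per length). POMP, a proteasome assembly factor, stood at 102 and 87.3 CPM. PAN3, of the deadenylase complex, stood at 33.8 and 47.7 CPM, and FLT1, a receptor of vascular endothelial growth factor, at 1.69 and 2.05 CPM. Near CDX2, genes of high level and genes near 0 lie side by side.

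Around MYC on chromosome 8, LRATD2, at -1183 kb, stood at 1442 and 1770 CPM and rank 110 per length. The noncoding RNA gene PVT1, at 59 kb, stood at 219 and 253 CPM, and CCAT2, at -335 kb, at 73.5 and 94.1 CPM and rank 842. POU5F1B and CASC8 lie between LRATD2 and CCAT2. They stood at 4.35 and 4.16 CPM (rank 10820) and at 6 and 6 counts (rank 12974), below both per length.

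Gene groups outside the lineage lists were also measured. All 33 glycolysis and hypoxia genes were detected, and together they took 31934 and 27243 CPM. All 20 sterol and lipid synthesis genes were detected, led by the desaturase gene SCD at 691 and 736 CPM. Of 34 interferon-stimulated genes 20 were detected. IFITM3, a restriction factor of virus entry with close paralogs, stood at 185 and 162 CPM and rank 263, while MX1 had 5 and 7 counts and OAS1 0 in both libraries. The 17 clock genes with a row were all detected, with BHLHE40 highest at 187 and 208 CPM.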
